A study of Mus musculus with 3 samples.

Results

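Aquaporins are membrane channels, and the 8 described here are the mouse genes Aqp1, Aqp3, Aqp4, Aqp5, Aqp7, Aqp8, Aqp9 and Aqp11, taken by gene symbol from a table of 39179 genes. They were chosen with their values in these libraries known. Everything that sets the Flag libraries against the IgG library is therefore given for them as a description, and no test is used as evidence on them. The other 4 aquaporin genes of the table, Mip, Aqp2, Aqp6 and Aqp12, are used for comparison. The study sequenced RNA that antibodies pulled out of white fat lysates, and the C57BL/6 mice were 16 weeks old. All mice carried a Flag-FTO transgene and were fasted overnight, so neither group is free of the transgene. In 2 libraries (Flag-IP 1 and Flag-IP 2) the antibody was anti-Flag M2, which binds the tag on FTO, and in 1 library (IgG-IP) it was IgG, which measures RNA that comes down without the tag being recognised. FTO takes methyl groups off adenosines in RNA. The sources used here do not give the promoter of the transgene, the number of animals in a library or whether the Flag-IP libraries came from separate animals, so p-values measure only the spread between these libraries, and the spread between the Flag-IP libraries may be technical.

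Most aquaporins pass water, and a subgroup called aquaglyceroporins also passes glycerol. When a fat cell breaks down triglyceride in fasting, fatty acids and glycerol are set free, and Aqp7 is the channel through which much of that glycerol leaves the cell. Aqp3 and Aqp9 are the other aquaglyceroporins among the 8: Aqp3 is best known from skin and kidney, and Aqp9 takes up glycerol in the liver. Aqp1, Aqp4 and Aqp5 are water channels of red cells and vessels, of brain and muscle, and of glands. Aqp8 also passes ammonia and hydrogen peroxide, and Aqp11 is a distant member found inside cells.

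Aqp7 and Aqp3 are neighbours on mouse chromosome 4 and point the same way. In GRCm38 with the GENCODE M21 annotation, Aqp7 runs on the minus strand from 41033074 to 41048139 and Aqp3 from 41092722 to 41098183, with 44582 bases between them. The letters GGACT are the form of the methylated-adenosine consensus most often named for messenger RNA, the kind of site at which FTO acts, and were searched on the sense strand of the longest protein-coding transcript of each gene. GGACT cannot overlap itself. The transcript of Aqp7 (2527 bases) holds 3 matches and that of Aqp3 (1765 bases) holds 2, and none of the 5 lies in the coding part. They are shown because they are the letters in which both neighbours could carry the mark, with GGACT in capitals and 8 bases to either side, written 5′ to 3′ on the transcript with T for U:
Aqp7, 5' UTR, chr4:41048091-41048111: gtgtgtatGGACTtggcttaa
Aqp7, 5' UTR, chr4:41047978-41047998: tcaagtgaGGACTcggagacc
Aqp7, 3' UTR, chr4:41033970-41033990: ttttctgaGGACTagagcata
Aqp3, 3' UTR, chr4:41093107-41093127: tgcttcagGGACTcctccatg
Aqp3, 3' UTR, chr4:41093025-41093045: tttgaaatGGACTtctaggct
The density was 1.19 matches per kb in Aqp7 and 1.13 in Aqp3. Over all 21866 protein-coding genes of the annotation, 87.7% of transcripts hold GGACT and the median density is 1.01 per kb (quartiles 0.562 and 1.5), so both densities lie inside the middle range. The other members ran from 0.381 per kb in Aqp1, with 1 match, to 1.87 in Aqp11, with 7. A match is a run of letters and does not show a methylated base, and the counts do not say where in a gene the reads fell.

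Trios of counts follow the order Flag-IP 1, then Flag-IP 2, then IgG-IP. Normalized counts put the libraries on a common depth, through division by effective library size and rescaling to the average of those sizes. A log2 ratio sets 1 Flag-IP library against IgG-IP on that scale after adding 2 counts to both. Library totals ranged from 74176962 to 98227791 counts, but the median tested gene had only 24 to 26 counts in a library. Most aquaporins lay below that, and their ratios are therefore loose. Intervals of folds are exact 95% intervals from the pooled Flag-IP counts against the IgG-IP counts and cover counting error only.

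Aqp7, the glycerol channel of fat, had 1932, 1631 and 196 counts. These are 2081, 1615 and 185 normalized counts. Both Flag-IP libraries were far above the IgG-IP library, and Flag-IP 1 was the higher of them. The Flag-IP mean was 1848 ± 329 (SD, n = 2) normalized counts and the log2 ratios were 3.48 and 3.12, a mean of 3.30 ± 0.26 (SD, n = 2). The pooled fold was 9.96, with a counting interval from 8.62 to 11.6. Without Flag-IP 1 the log2 ratio is 3.12, without Flag-IP 2 it is 3.48, and with library totals in place of TMM factors (edgeR's scaling by trimmed means) it is 2.78. Of the 6 members that passed the count filter, 1, Aqp7, was past edgeR's adjusted threshold of 0.05 in the upward direction and 0 in the downward one. Over all 17587 genes tested 5.58% were called higher and 5.77% lower. The members were chosen on this comparison, so nothing is read from their count or from the call of Aqp7.

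The remaining aquaglyceroporins were counted far less. Aqp3 had 4, 10 and 0 counts, or 4.31, 9.90 and 0 normalized counts. It was seen in both Flag-IP libraries and not in the IgG-IP library, where a count of 0 allows up to 3 counts, or 2.83 normalized counts. Against that floor in the IgG-IP library the Flag-IP mean of 7.11 was at least 2.51-fold higher before counting error in the Flag-IP counts is allowed for. Against the same floor it was 1.52-fold without Flag-IP 2 and 3.50-fold without Flag-IP 1. The counting interval of the fold, which takes in the Flag-IP counts too, starts at 1.82 and has no upper end. Aqp9 had 48, 24 and 24 counts, or 51.7, 23.8 and 22.6 normalized counts. Flag-IP 1 stood alone and Flag-IP 2 lay next to IgG-IP. Its pooled fold was 1.64 (counting interval 1.02 to 2.73), with a log2 ratio of 1.13 for Flag-IP 1 and of 0.07 for Flag-IP 2.

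The difference in log2 ratio between Aqp7 and its neighbour Aqp3 could not be fixed at this depth. In level they were far apart: per kb of transcript Aqp7 had 823, 639 and 73.1 normalized counts, and Aqp3 had 2.44, 5.61 and 0. In the ratio to IgG-IP the order turned with the number of counts added before taking logs, because Aqp3 is at 0 in IgG-IP. The log2 ratio of Aqp7 minus that of Aqp3 was 1.18 with 2 added counts, 2.49 with 10 and -0.51 with 0.5. The statement that holds is on level: Aqp7 was the abundant gene of the pair in every library.

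Among the water channels, Aqp5 had 13, 17 and 2 counts, or 14.0, 16.8 and 1.88 normalized counts. Both Flag-IP libraries were above IgG-IP, and the pooled fold of 8.22 has a counting interval from 2.08 to 70.9, since it rests on 2 counts in IgG-IP. Aqp1 had 7, 15 and 4 counts, or 7.54, 14.9 and 3.77 normalized counts. Both Flag-IP libraries were higher there too, Flag-IP 2 by more, with a pooled fold of 3.01 (counting interval 1.02 to 12). Aqp4 had 10, 13 and 10 counts, or 10.8, 12.9 and 9.42 normalized counts, with a fold of 1.26 (0.577 to 2.96). The 3 libraries lay close together for Aqp4, and its mean log2 ratio of 0.27 fell to -0.17 under total-count scaling.

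Aqp8, which passes ammonia and hydrogen peroxide, had 4, 4 and 2 counts, or 4.31, 3.96 and 1.88 normalized counts, the smallest mean of the 8. Its fold of 2.19 has a counting interval from 0.437 to 21.2, so no difference was detectable at this depth. Aqp11, the intracellular member, had 9, 10 and 8 counts, or 9.69, 9.90 and 7.54 normalized counts, with a fold of 1.30 (0.544 to 3.43). The libraries were level for Aqp11, and its mean log2 ratio of 0.31 became -0.12 under total-count scaling. Aqp3 and Aqp8 failed the count filter, and the other 6 members passed it. With TMM scaling all 8 members had a log2 ratio above 0 in both Flag-IP libraries, which 40.5% of the 17587 tested genes and 35.3% of the 31043 genes with any count also had. Nothing is read from this count, as the members were chosen on this comparison and Aqp4 and Aqp11 changed sign with total-count scaling. That scaling moved the median log2 fold change of all tested genes by -0.52.

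**Figure D1:**
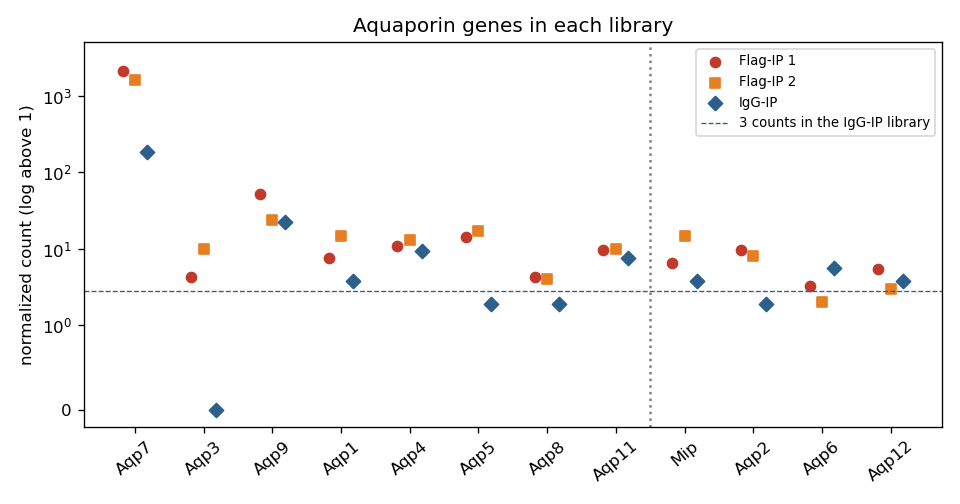
Normalized counts (vertical axis, logarithmic above 1 and linear below) of the 8 members to the left of the dotted line and of the other 4 aquaporin genes to the right, 1 point for each of the 3 libraries, with the dashed line at 3 counts in IgG-IP. Aqp7 lies at 2081 and 1615 in Flag-IP and 185 in IgG-IP, and every other aquaporin lies at or below 51.7 in every library.

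The aquaporins outside the 8 were weakly counted as well. Mip, the channel of the eye lens, had 6, 15 and 4 counts, and overlaps the noncoding gene Gm26847 on the opposite strand. Aqp2, the vasopressin-regulated channel of the kidney, had 9, 8 and 2 counts. Aqp6, of kidney vesicles, had 3, 2 and 6, and Aqp12, of the pancreas, had 5, 3 and 4. Only Aqp6 was lower in both Flag-IP libraries than in IgG-IP, with a fold of 0.456 and a counting interval from 0.110 to 1.79. Aqp2, Aqp5 and Aqp6 lie side by side on chromosome 15, with 6234 bases between Aqp2 and Aqp5 and 6570 between Aqp5 and Aqp6, and their folds of 4.66, 8.22 and 0.456 were unlike in direction, at counts of 17 or fewer. Together the 11 genes other than Aqp7 had 118, 121 and 66 counts, a pooled fold of 1.98 (1.5 to 2.65). That interval covers the counting error of the sum and not the spread among the genes. Where defined, their single folds ran from 0.456 in Aqp6 to 8.22 in Aqp5. The fold of Aqp7 was 9.96 (8.62 to 11.6), but Aqp7 was chosen on this comparison, so the intervals are no test of it against its family.

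Aqp7 made up nearly all aquaporin counts. Its share was 94.2% of 2050 in Flag-IP 1 (95% Wilson interval 93.2% to 95.2%), 93.1% of 1752 in Flag-IP 2 (91.8% to 94.2%) and 74.8% of 262 in IgG-IP (69.2% to 79.7%). So Aqp7 was the leading aquaporin in the IgG-IP library too. That share is a measure within a library, but the counts behind it were known when the genes were chosen. The Flag-IP shares lay within about a percentage point of each other, and the IgG-IP share was lower than both, which is the chosen comparison again. These intervals cover counting error only, and the IgG-IP share has no replicate.

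The Flag-IP libraries can be set against each other without the comparison used for the choice. For Aqp7 Flag-IP 1 was 1.29 times Flag-IP 2 (counting interval 1.21 to 1.38), a log2 difference of 0.36. Among 4448 tested protein-coding genes averaging 50 or more counts the SD of that difference was 0.35, so Aqp7 differed between the Flag-IP libraries about as much as such genes do. For Aqp9 Flag-IP 1 was 2.17 times Flag-IP 2 (1.31 to 3.71), the only member besides Aqp7 whose interval leaves out 1. For Aqp3 it was 0.435 (0.0996 to 1.51) and for Aqp1 0.507 (0.175 to 1.32), and both of these intervals include 1. With 1 library on each side these differences have no replicate check.

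No gene of the count table overlaps any of the 8 members. In the annotation, Aqp4 overlaps the antisense gene AC133525.2, and Aqp9 overlaps the antisense gene Gm32511 and the pseudogene Gm47268, all on the opposite strand. As the strand setting of the counting is not given, reads from such partners cannot be told apart from those of Aqp4 and Aqp9. Aqp7 has no overlapping gene in the annotation. The small nuclear RNA gene Gm25637, 2080 bases upstream of Aqp7, had 0 counts in all 3 libraries, which allows up to 3 counts in each.

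The other neighbours lay far below Aqp7 in level in Flag-IP. Within 100 kb of Aqp7 and Aqp3 lie 5 whole protein-coding genes besides them, all tested. Of these, 0 were called in either direction by edgeR's quasi-likelihood test (adjusted p from 0.174 to 0.9996). Over all 17587 genes tested 5.58% were called higher and 5.77% lower, so 0 of 5 shows little. At an unadjusted p under 0.05, 1 was lower and 0 higher, and DESeq2 gave no adjusted p for any of the 5. Counts at an unadjusted p, here and below, have no share over all genes beside them, and nothing is read from them. Nfx1, a transcription factor gene that ends 7080 bases from Aqp7, had 28, 29 and 56 counts (log2 fold change -0.84 ± 0.41, SE). Nol6, a nucleolar protein gene beyond Aqp3, had 11, 10 and 6 counts (0.93 ± 1.09). The ubiquitin-conjugating enzyme gene Ube2r2, which lies further out, had 77, 78 and 65 (0.39 ± 0.33), Chmp5, for a subunit of the membrane-scission machinery, 4, 9 and 18 (-1.33 ± 0.89), and Bag1, a co-chaperone gene, 19, 10 and 16 (0.00 ± 0.74). Bag1 lay on both sides of its IgG-IP value, and the others kept 1 direction in both Flag-IP libraries. Both ratios share the IgG-IP library, and 40.5% of all tested genes lay above 0 in both, so nothing is read from this agreement.

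**Figure D2:**
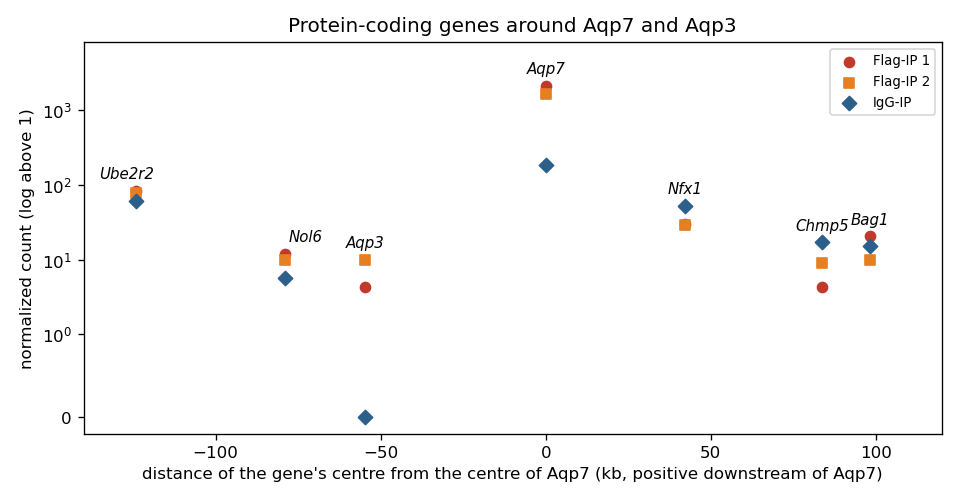
Normalized counts (vertical axis, logarithmic above 1) of Aqp7, Aqp3 and the 5 other protein-coding genes of the region in each library, against the distance of the gene's centre from that of Aqp7 in kb. Aqp7 stands above all its neighbours in every library, and its Flag-IP points are separated from its IgG-IP point by more than those of any neighbour with counts in IgG-IP.

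White adipocyte markers show how Aqp7 stood among genes of its own cell type. All 12 listed markers had counts, so none was at 0, but several were weakly counted. Adipoq had 18, 14 and 3 counts, Retn 11, 6 and 3, Cfd 6, 4 and 7, and Fabp4 30, 17 and 19. The median tested gene had 24 to 26 counts in a library, so the ratios of these markers are loose. Their summed normalized counts were 3750 and 2359 in Flag-IP and 2866 in IgG-IP, so the sum did not separate the groups. Most of it was Lpl, lipoprotein lipase, with 3108, 1996 and 2666 counts (log2 fold change 0.08 ± 0.23, SE, edgeR adjusted p = 0.864). Per kb of transcript Aqp7 had 1.01 times the level of Lpl in Flag-IP 1, 1.33 times in Flag-IP 2 and 0.12 times in IgG-IP. The median marker had 12.6, 11.3 and 4.81 normalized counts per kb, against 823, 639 and 73.1 for Aqp7. Fabp4, the fatty acid carrier of fat cells, had 36.1, 18.8 and 20.0 per kb. Adipoq, which encodes adiponectin, had 15.0, 10.7 and 2.19. Cidec, a lipid droplet protein gene, had 73.3, 53.5 and 83.2. All 12 markers thus lay below Aqp7 per kb in both Flag-IP libraries, and 2 of them, Lpl and Cidec, lay above it in IgG-IP.

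Of the 11 markers tested, 2 were called higher, the lipid droplet coat genes Plin4 (30, 34 and 4 counts) and Plin1 (34, 59 and 12). Over all genes tested 5.58% were called higher and 5.77% lower. None of the 11 markers were called lower by edgeR, with 1 lower and 4 higher at an unadjusted p under 0.05. DESeq2 called none in either direction, and its adjusted p was missing for 10 of the 11. In these pull-downs from bulk lysates, recovery by the antibody, the number of cells of a type and RNA per cell cannot be told apart.

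**Figure D3:**
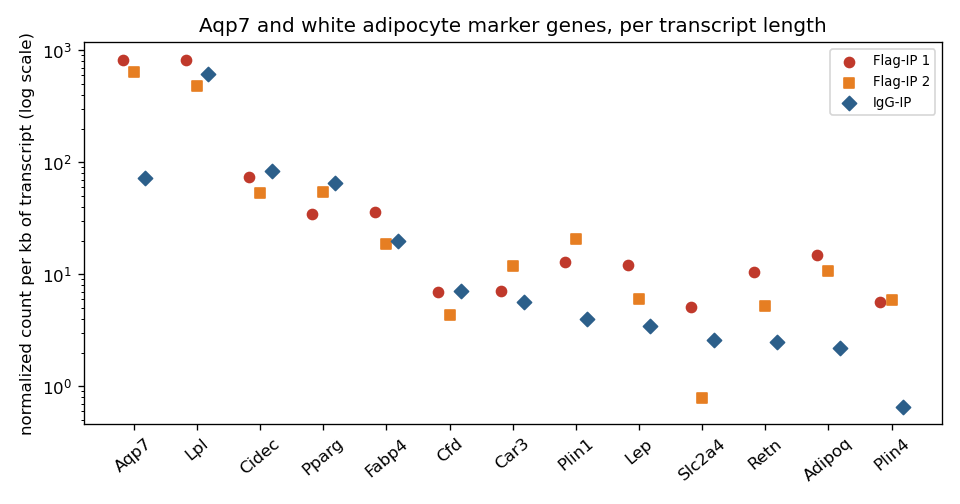
Normalized counts per kb of transcript (logarithmic vertical axis) of Aqp7 and the 12 white adipocyte markers in each library, markers ordered by their IgG-IP level. In Flag-IP Aqp7 (823 and 639) is at the level of Lpl (813 and 480), and in IgG-IP it is at 73.1 against 610.

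Marker lists of other cells that make aquaporins were counted beside them. Endothelium, which has Aqp1 and Aqp7, summed to 675 and 741 normalized counts in Flag-IP and 659 in IgG-IP over 8 genes. Red cell genes, for Aqp1, summed to 47.4 and 39.6 against 30.1 over 7, and epithelial genes, for Aqp3 and Aqp5, to 110 and 121 against 89.5 over 9. Myeloid genes, for Aqp9, gave 178 and 138 against 183 over 7, and liver genes, for Aqp8, Aqp9 and Aqp11, 17.2 and 31.7 against 33.0 over 6. Of the 18 genes of these 5 lists that were tested, 0 passed edgeR's threshold in either direction. Over all genes tested 5.58% were called higher and 5.77% lower, so a count of 0 among so few genes shows little. At an unadjusted p under 0.05, 2 were higher and 1 lower. By DESeq2 0 passed, and it gave no adjusted p for 16. No listed marker was at 0 in all libraries, but the liver genes Apoa1, Apoa2 and Serpina1a, the epithelial genes Krt18 and Csn3, the red cell genes Hba-a1 and Hba-a2, Cldn5 of endothelium and S100a8 of myeloid cells were at 0 in IgG-IP. In Flag-IP the myeloid gene Lyz2 was at 0 in both libraries (0, 0 and 4 counts), the liver gene Ttr in Flag-IP 2 (4, 0 and 8), and Apoa1, Apoa2, Serpina1a and S100a8 in Flag-IP 1. Skeletal muscle genes, for Aqp4, summed to 255 and 178 against 121 over 8 genes, and Acta1 was at 0 in IgG-IP. Of 7 tested, 2, Ckm and Tnnt3, were called higher by edgeR, against 5.58% over all genes tested. The other 5 did not pass, among them Myh1 (24, 14 and 21 counts) and Myh2 (19, 19 and 28). DESeq2 called 0 and gave no adjusted p for any of the 7. Their part in the value of Aqp4 was not tested.

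The glycerol pathway list holds genes that release glycerol, phosphorylate it, make glycerol 3-phosphate, acylate it, or are known regulators of Aqp7 and glucose handling. Of its 39 tested genes 5 were called higher by edgeR and 0 lower, against 5.58% and 5.77% over all genes. At an unadjusted p under 0.05, 10 were higher and 3 lower. The share of all genes at that threshold was not counted, so no lean of the list is read from these. DESeq2 called none and gave no adjusted p for 37. The median log2 fold change was 0.44, against 0.03 over all genes tested. With total-count scaling 1 was higher and 3 were lower.

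By step of the pathway, the list divided as follows. In lipolysis, the step that frees the glycerol, 2 of 10 were higher. Mgll, monoglyceride lipase, which removes the last fatty acid and leaves glycerol, had 196, 251 and 120 counts (log2 fold change 1.02 ± 0.25, SE, edgeR adjusted p = 0.00146), and Plin1, which guards the droplet surface, 34, 59 and 12. Lipe, hormone-sensitive lipase, had 52, 35 and 23 counts and did not pass (edgeR adjusted p = 0.113). Other genes of the step went the other way: Abhd5 had 6, 11 and 20 counts (-1.10 ± 0.76), Ces1f 4, 12 and 16 (-0.87 ± 0.86) and Ces1d 38, 18 and 39 (-0.33 ± 0.45). All other tested genes of the step had a log2 fold change above 0. Among these, Pnpla2 (16, 5 and 9 counts) lay on both sides of its IgG-IP value. Of the kinases and glycerol 3-phosphate dehydrogenases 0 of 5 passed by edgeR, with 2 lower and 0 higher at an unadjusted p under 0.05. Gpd2, the mitochondrial dehydrogenase, had 105, 82 and 162 counts (-0.65 ± 0.26, edgeR adjusted p = 0.0876), and Gyk, glycerol kinase, 17, 27 and 54 (-1.16 ± 0.44, edgeR adjusted p = 0.0605). Lipe and Gyk are named for their role, and Abhd5, Ces1f, Ces1d and Pnpla2 for their direction, after their values were seen. Of the genes that make glycerol 3-phosphate from pyruvate 0 of 3 passed, and of those for glycerol use in liver and glucose transport 0 of 2, by edgeR and also at an unadjusted p under 0.05, and DESeq2 gave no adjusted p for any of these 5. In acylation 2 of 11 were higher, Dgat2, which makes triglyceride (50, 42 and 21 counts), and the phosphatidate phosphatase gene Lpin3 (28, 36 and 10). Of the regulators 1 of 8 was higher, the nuclear receptor gene Rxra (81, 116 and 51), while Pparg, the receptor known to drive Aqp7 in fat cells, had 68, 117 and 148 and Insr, the insulin receptor, 133, 128 and 163, both without passing. Each called gene of the list moved by a log2 fold change of 2.06 or less, and Aqp7 stood at 3.30 as a mean log2 ratio.

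By log2 ratio Aqp7 ranked 4 of the same 4448 genes, in each Flag-IP library and in their mean. Over all 14920 tested protein-coding genes, the weakly counted ones included, it ranked 20 in Flag-IP 1, 41 in Flag-IP 2 and 15 in the mean. By level per kb it ranked 84 and 87 of 14920 tested protein-coding genes in Flag-IP 1 and Flag-IP 2, and 711 in IgG-IP. The median log2 ratios of those 14920 genes were 0.02 and 0.03. Aqp7 was chosen on this comparison, so its ranks by ratio are a description and not evidence.

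**Figure D4:**
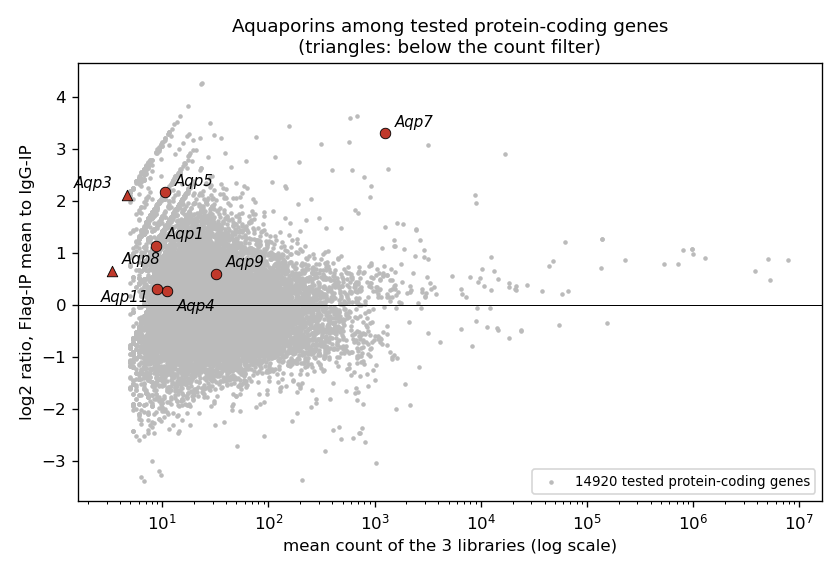
Mean log2 ratio of the Flag-IP libraries to IgG-IP (vertical axis) against the mean count of the 3 libraries (logarithmic horizontal axis) for 14920 tested protein-coding genes in grey and the 8 members in red, triangles being below the count filter. Aqp7 at 3.30 and a mean of 1253 counts stands apart from the other 7 members. Those have means of 32 counts or fewer, where the grey cloud is wide.

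The genes most like Aqp7 were taken as the 5 with the smallest Euclidean distance to it in the 2 log2 ratios, over the 4447 of those genes outside the family. With 3 libraries this compares 2 values a gene. They were Ttll8 (892, 733 and 99 counts, distance 0.231), Rnf114 (220, 232 and 21, distance 0.297), Rps3 (506, 384 and 55, distance 0.317), Tex14 (4803, 4216 and 584, distance 0.319) and Ss18 (941, 747 and 74, distance 0.428). Their log2 fold changes ran from 3.09 ± 0.27 (SE) in Tex14 to 3.65 ± 0.28 in Ss18, with 3.17 ± 0.27 in Ttll8. Tex14 overlaps genes of structural RNA such as Rnu1a1, Rps3 overlaps Snord15a and Snord15b, and Ss18 overlaps the small nuclear RNA gene Gm24924. Rnf114 overlaps the protein-coding gene Spata2. Summed over the 3 libraries, the most counted overlapping gene had 1752 counts for Tex14, 764 for Rps3, 1650 for Ss18 and only 8 for Rnf114. Ttll8, like Aqp7, overlaps no gene with counts.

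GC content of the transcript moved with the ratio over all genes. The median log2 ratio of the tested protein-coding genes split into 10 bins by GC, went from -0.73 in the lowest bin to 0.79 in the highest, and the share called higher from 0.604% to 15.8%. Aqp7, at 49.7% GC, falls in bin 6, where the median was 0.08 and 3.16% were called higher. It ranked 2 of the 1488 genes of that bin, and its ratio less the median of the bin was 3.21. That rank, too, only describes the ratio on which Aqp7 was chosen. Aqp5, at 64.0% GC, falls in the highest bin, and its mean log2 ratio of 2.16 became 1.37 with that bin's median taken off. Aqp4, the member with the lowest GC at 41.4%, went the other way, from 0.27 to 0.83. Aqp3, at 53.0%, went from 2.12 to 1.85. The 5 called genes of the glycerol list all had GC between 55.3% and 57.0%, in bin 9, where 12.3% of genes were called higher. The called adipocyte markers Plin4 and Plin1 fall in bin 9 as well. Ckm and Tnnt3, the called muscle genes, fall in bin 8, where 9.14% were called higher. The part of GC in the members' values was not tested further.

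**Figure D5:**
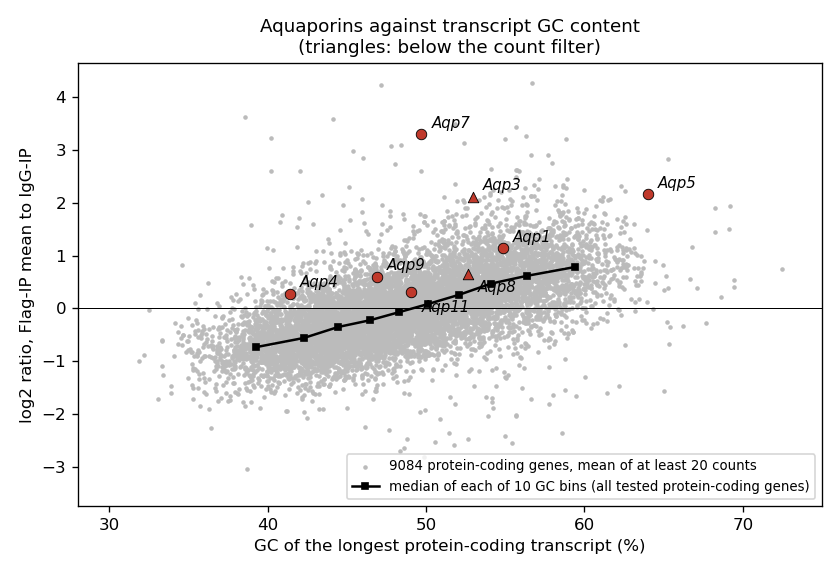
Mean log2 ratio of the Flag-IP libraries to IgG-IP (vertical axis) against GC percent of the longest protein-coding transcript for the 9084 genes averaging 20 or more counts in grey, the 8 members in red and the medians of the GC bins in black. The black line climbs from -0.73 to 0.79, and Aqp7 lies 3.21 above the median of its own bin.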

How the data were processed

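The authors deposited unnormalized whole-number counts for each Ensembl gene in 3 libraries, whose columns carry the number that each sample's label also gives. Per the submitters' processing notes, CASAVA 1.7, Bowtie 0.12.2 and the build mm8 were used. For the counting program, annotation and strand, no name is given in the sources used here. Positions, transcripts and GC come from GENCODE M21 on GRCm38, matched by Ensembl identifier (37607 of 39179 genes), and no position is in mm8. A second deposited table, of lipid genes, lists 0 aquaporins and was not used here.

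Genes were filtered with filterByExpr (minimum count 10), which left 17587, scaled with TMM factors and tested with edgeR 4.0.16 (R 4.3.3), glmQLFit and glmQLFTest, Flag-IP against IgG-IP, Benjamini-Hochberg adjusted over all genes, threshold 0.05. Every adjusted p is from that fit, and each SE is the absolute log2 fold change over the root of F. The lone IgG-IP library adds no spread of its own. The fit was also run on simulated data with the same spread for all genes and libraries. That cannot check whether the lone IgG-IP library has the spread assumed for it. The alternatives were other scalings and filters, DESeq2 1.42.0, other prior counts, each Flag-IP library left out, and subtraction of GC medians.

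The members and lists were chosen with earlier results of these data known. Named are all aquaporins, the called genes and the 4 with the highest mean count of the glycerol list, neighbours within 100 kb, the 5 genes nearest to Aqp7, and markers. Some glycerol list genes are also named for their role or direction, as stated there.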

Additional observations from a re-analysis of the deposited data

How the results depend on the processing

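The log2 ratio of Aqp7 stayed between 2.78 and 3.48 under 8 alternatives. It was 2.78 with total-count scaling and within the spread of the Flag-IP libraries (1 SD) in the others. With a Flag-IP library left out it was 3.12 or 3.48, the ratio of the library that remained. Those values lie within 1 SD by arithmetic, so they cannot show that the ratio is stable. The ratio of Aqp7 minus that of Aqp3 was -0.51 with a prior count of 0.5 and 2.49 with 10, against 1.18, and from 0.54 to 1.82 with a Flag-IP library left out. Over the 8 members alone, without the 4 other aquaporins, the Flag-IP shares of Aqp7 were 95.3% and 94.6%. Genes called higher numbered 342 with total-count scaling and 131 by DESeq2, against 981. Genes called lower numbered 3008 and 145, against 1015. DESeq2 gave no adjusted p for 15684 genes. Of the glycerol list, 1 gene was called higher and 3 lower with total-count scaling, 3 were higher with no filter, 2 when only genes averaging 50 or more counts were kept and 0 by DESeq2, against 5 higher and 0 lower. Without a Flag-IP library no test is possible, as no residual degree of freedom is left, so calls were not recounted. No paired analysis was possible because the groups share only 1 replicate number.

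Depth limits all members but Aqp7: the other 7 had at most 48 counts in a library, and 3 of them, Aqp3, Aqp5 and Aqp8, had 2 or fewer in IgG-IP. The IgG-IP library has no replicate, so its spread is assumed and not measured.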
